A study of Mus musculus with 8 samples.

Results

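The genes described here are 37 genes induced by type I interferon, the interferon-stimulated genes (ISGs), chosen by symbol from a list of known ISGs and not by a threshold on their values. The choice was made with earlier results of these data known, so that shares set beside those of all genes below are descriptions. All 37 had a row among the 56805 genes counted, and 36 had enough counts to be tested. They were measured by bulk RNA-seq in CD8+ T cells whose single antigen receptor, OT-I, is specific for an ovalbumin peptide. They came from the spleen and lymph nodes of OT-I:Rosa26-Cas9 mice, which carry Cas9 in all cells, and were activated in culture with CD3/CD28 beads before they were kept in the cytokines interleukin 2, interleukin 7 and interleukin 15.

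The 2 groups differed in the guide carried by a lentiviral vector. sgElovl1 cells received a guide against Elovl1, which encodes an enzyme that elongates fatty acids to very long chains, and sgNT cells received a non-targeting guide. Cells of both groups were sorted 3 days after transduction on CD90.1, the surface reporter of the vector. This follows the sample labels and the series title, whereas the design text of the series describes T cells recovered from tumours after transfer into mice. Both groups thus shared activation, Cas9, viral transduction and sorting, and no group without a virus or with added interferon was analysed here. The labels name 8 samples from 2 experiments, each with 2 mice per group, and the counts of the mice had been summed within a group and experiment. This left 4 columns. What differed between the experiments is not stated in the labels.

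Total counts were 57341720 in sgElovl1 and 49068952 in sgNT cells of experiment 2, and 51621372 in sgElovl1 and 63623476 in sgNT cells of experiment 1. Levels are given as CPM, which are counts scaled to a common library size by the trimmed mean of M values (TMM). Where a gene had no count, 3 counts were taken as the limit, or 0.0474 to 0.0601 CPM, which covers counting error only. Elovl1 RNA stood at 55.8 CPM in sgElovl1 against 93.5 CPM in sgNT cells of experiment 2, and at 61.3 against 110 CPM in experiment 1. The T cell genes Cd8a (518 to 730 CPM) and Cd3e (421 to 451 CPM) were present in every column.

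Type I interferons bind a receptor of the chains IFNAR1 and IFNAR2, and the attached kinases JAK1 and TYK2 then phosphorylate STAT proteins, STAT2 among them. With IRF9 they form ISGF3, a complex that binds the interferon-stimulated response element (ISRE) in the promoters of ISGs, whereas STAT dimers without IRF9 bind the gamma-activated site (GAS). ISGs encode sensors of viral nucleic acid, enzymes and binding proteins that block viral replication, and components of the pathway itself, so that a low steady signal can keep many of them expressed in T cells that have met no virus.

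The promoter sequences bear on all the genes below, because the ISRE is the shared element through which ISGF3 acts. RefSeq promoter windows (build GRCm38.p6, 250 bases before to 50 bases after each annotated start) were matched by symbol for 27 of the 37 genes. The ISRE core was searched as GAAA, any 2 bases and GAAA again, and the GAS core as TTC, any 3 bases and GAA, both on either strand and with overlapping matches counted. Shown are stretches of 40 bases around an ISRE core before the start of genes named below, on the strand of the gene, with the core in capitals. A core that lies on the other strand reads TTTC, any 2 bases and TTTC.
Ifit3, chr19:34583358-34583397, plus strand: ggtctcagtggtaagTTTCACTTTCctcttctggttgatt
Ifit3, chr19:34583392-34583431, plus strand: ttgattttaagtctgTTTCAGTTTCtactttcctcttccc
Ifit3b, chr19:34607754-34607793, plus strand: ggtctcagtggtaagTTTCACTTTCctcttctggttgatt
Ifit1, chr19:34640789-34640828, plus strand: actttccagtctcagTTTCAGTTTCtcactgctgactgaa
Stat2, chr10:128270261-128270300, plus strand: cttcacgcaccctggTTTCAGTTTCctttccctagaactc
Isg15, chr4:156200866-156200905, minus strand: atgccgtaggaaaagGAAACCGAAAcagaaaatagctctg
Rsad2, chr12:26456548-26456587, minus strand: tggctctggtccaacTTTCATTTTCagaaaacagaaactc
Oas3, chr5:120777710-120777749, minus strand: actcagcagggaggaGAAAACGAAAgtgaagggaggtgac
Bst2, chr8:71537572-71537611, minus strand: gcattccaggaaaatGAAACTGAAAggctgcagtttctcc

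Of the 27 genes with a promoter window, 12 held at least 1 ISRE core (44.4%), against 3.99% of the 27025 genes in the promoter table. The GAS core was present in 7 of the 27 (25.9%), against 9.55% of all genes with a window. The ISRE core was found in Ifit1, Ifit3, Ifit3b, Isg15, Rsad2, Oas1a, Oas3, Stat2, Ifih1, Bst2, Trim30a and Eif2ak2. Isg15 held 3 overlapping cores, of which the middle one is in capitals above. Ifit3 and Ifit3b each held 2, and the 40 bases around each core were the same in both genes. Irf7, Irf9, Ifit2, Cmpk2 and Xaf1 had a window without the ISRE core, which says only that these letters are not in it. A match is a description of the sequence and not evidence of binding.

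**Figure D1:**
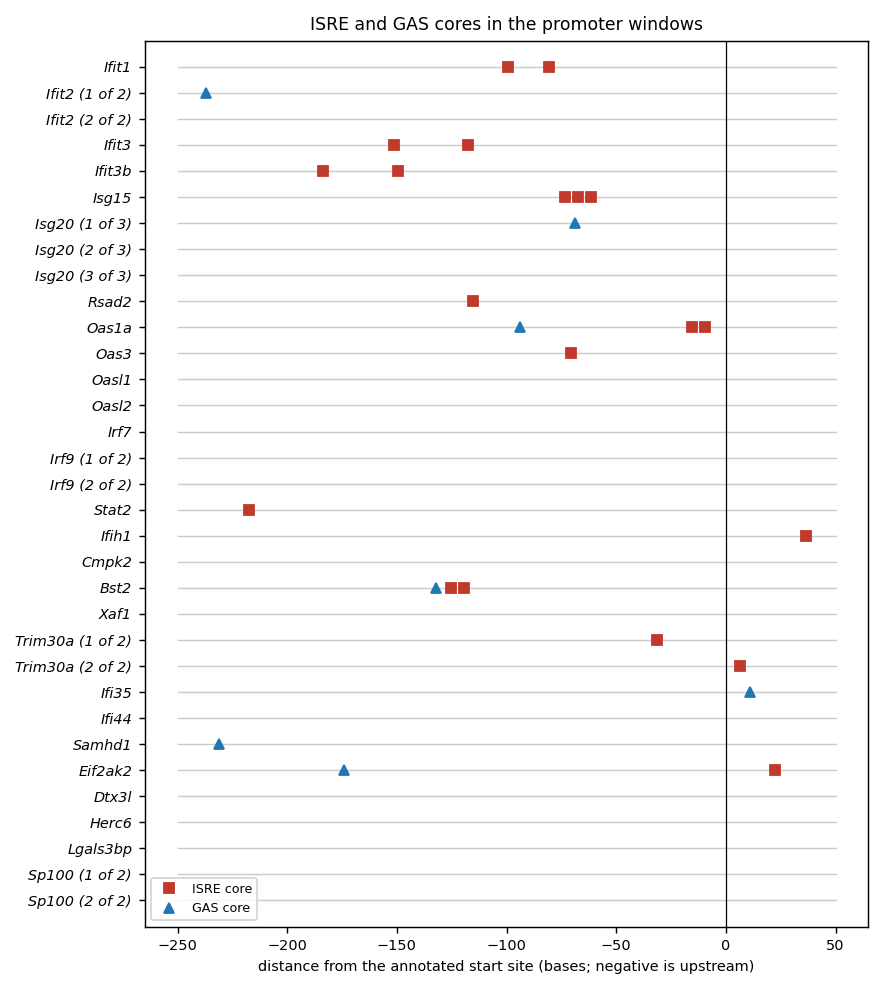
Positions of ISRE cores (squares) and GAS cores (triangles) in the 300-base promoter windows of the 27 genes with a RefSeq window, with 1 line per annotated start and the distance from the start in bases on the x axis. ISRE cores are seen in 12 genes and most lie before the start, with those of Ifih1 and Eif2ak2 and 1 of Trim30a after it.

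The comparison of sgElovl1 with sgNT cells asked how targeting Elovl1 changed the RNA of the activated T cells, and among the ISGs 2 of 36 rose, Ifit3 and Stat2, and 0 fell. The test was the quasi-likelihood test of edgeR with experiment as a term, and genes passed at a Benjamini-Hochberg adjusted p under 0.05. These were 5.56% of the genes tested here, against a background of 0.762% of all 16006 genes tested called higher, 0.437% called lower and 1.2% called in either direction. At an unadjusted p under 0.05 there were 7 ISGs (19.4%, against 10.6% of all genes tested), and all 7 were higher in sgElovl1 cells of both experiments. These 7 were picked by a fit over both experiments, which favours genes with the same sign in both. DESeq2 and limma-voom also called 0 of the ISGs lower. The median log2 fold change of sgElovl1 over sgNT was 0.07 over the 36 ISGs and -0.01 over all genes tested. The fold change was positive for 25 of 36 ISGs (69.4%), against 46.5% of all genes tested.

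Ifit3, of the IFIT family of antiviral proteins, whose human counterpart stabilises IFIT1, had 55.3 CPM in sgElovl1 against 43.2 CPM in sgNT cells of experiment 2, and 12.5 against 9.30 CPM in experiment 1. The sgElovl1 column was the higher one in each experiment, but the groups overlapped across experiments, since both columns of experiment 2 lay above both columns of experiment 1. This was a log2 fold change of 0.39 (SE 0.08) at an adjusted p of 0.00163 in edgeR. It was 0.36 in experiment 2 and 0.43 in experiment 1 taken alone. Ifit3 shares 18.5% of the 150-base stretches of its transcripts with its neighbour Ifit3b, so that reads of the pair can be split uncertainly. Ifit3b had 7.09 CPM in sgElovl1 against 4.94 CPM in sgNT cells of experiment 2 and 1.52 against 1.26 CPM in experiment 1, with a log2 fold change of 0.41 (SE 0.24, adjusted p = 0.547 in edgeR).

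Stat2, the subunit that gives ISGF3 its activation domain, had 220 CPM in sgElovl1 against 184 CPM in sgNT cells of experiment 2, and 120 against 97.0 CPM in experiment 1. As for Ifit3, the sgElovl1 column was higher within each experiment and the experiments lay further apart than the guides. The estimate over both experiments was 0.28 on the log2 scale (SE 0.06), at an adjusted p of 0.00270 in edgeR, from 0.26 in experiment 2 and 0.31 in experiment 1. Irf9, the DNA-binding subunit of ISGF3, had 131 CPM in sgElovl1 against 119 CPM in sgNT cells of experiment 2 and 77.5 against 67.0 CPM in experiment 1. Its log2 fold change of 0.18 (SE 0.07) was not past the threshold (adjusted p = 0.203 in edgeR). Irf7, a transcription factor that amplifies interferon production, had 210 CPM in sgElovl1 against 197 CPM in sgNT cells of experiment 2 and 76.2 against 73.2 CPM in experiment 1, a log2 fold change of 0.08 (SE 0.06, adjusted p = 0.757 in edgeR).

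The calls of Ifit3 and Stat2 depended on the tool and on how the experiments were treated. The Wald test of DESeq2 called Stat2 (adjusted p = 0.0323) and not Ifit3 (log2 fold change 0.40, adjusted p = 0.227), and with no experiment term edgeR called 0 ISGs, with fold changes of 0.37 for Ifit3 and 0.28 for Stat2 and 0 ISGs at an unadjusted p under 0.05. That fit called 0 of all 16006 genes, with 19 at an unadjusted p under 0.05, so that its count is not particular to the ISGs. When the part of the guide difference that runs along the difference between experiments was subtracted, edgeR called 0 ISGs, against 49 of all genes higher and 23 lower, and 4 ISGs had an unadjusted p under 0.05. Fits on 3 of the columns, with the guide as sole term, set unequal numbers of columns of the experiments against each other. In each of these 4 fits edgeR called 0 ISGs, with 0 to 4 at an unadjusted p under 0.05, and 0 or 1 of all 16006 genes. The fold change of Ifit3 was then -1.06 without sgElovl1 and 1.90 without sgNT of experiment 2, and 1.08 without sgElovl1 and -0.35 without sgNT of experiment 1. That of Stat2 was -0.22 without sgElovl1 and 0.84 without sgNT of experiment 2, and 0.65 without sgElovl1 and -0.11 without sgNT of experiment 1.

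**Figure D2:**
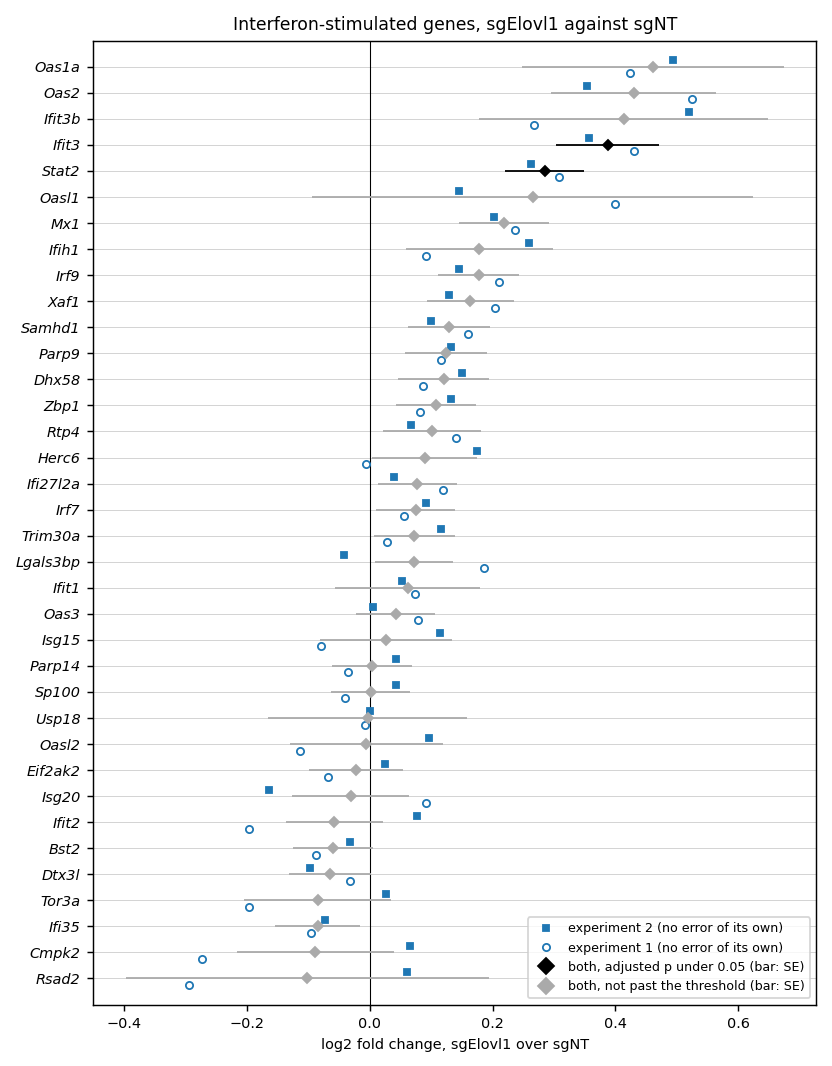
Log2 fold change of sgElovl1 over sgNT for the 36 ISGs tested, with the edgeR estimate over both experiments (diamonds, bars are SE) and the ratio of the columns of experiment 2 (squares) and experiment 1 (open circles), which have no error of their own. Ifit3 (0.39) and Stat2 (0.28) are the black diamonds past the threshold, and the estimates run from -0.10 (Rsad2) to 0.46 (Oas1a).

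Outside Ifit3 and Stat2 the genes with the smallest p-values belonged to several roles. Oas2, one of the synthetases of oligoadenylates that activate RNase L, had 16.1 CPM in sgElovl1 against 12.6 CPM in sgNT cells of experiment 2, and 5.93 against 4.12 CPM in experiment 1. The estimate of 0.43 (SE 0.13, log2) had an adjusted p of 0.0852 in edgeR. Oas1a, of the same family, had 6.06 CPM in sgElovl1 against 4.304 CPM in sgNT cells of experiment 2 and 3.52 against 2.62 CPM in experiment 1. The estimate of 0.46 (SE 0.21, log2) had an adjusted p of 0.399 in edgeR, and the gene shares 32.4% of its 150-base stretches with Oas1g. The other OAS genes had log2 fold changes of 0.27 (Oasl1), 0.04 (Oas3) and -0.01 (Oasl2). Of the 5, 0 were past the threshold in edgeR, and Oas2 and Oas1a (40%) had an unadjusted p under 0.05. Over all genes tested these shares were 1.2% and 10.6%.

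Mx1 encodes a dynamin-like antiviral GTPase whose allele in C57BL/6 mice is known to make no functional protein. It had 60.1 CPM in sgElovl1 against 52.2 CPM in sgNT cells of experiment 2, and 36.1 against 30.6 CPM in experiment 1, a log2 fold change of 0.22 (SE 0.07, adjusted p = 0.130 in edgeR). Xaf1, which encodes an antagonist of the apoptosis inhibitor XIAP, had 84.0 CPM in sgElovl1 against 76.9 CPM in sgNT cells of experiment 2 and 38.1 against 33.1 CPM in experiment 1, a log2 fold change of 0.16 (SE 0.07, adjusted p = 0.346 in edgeR). For both genes each sgElovl1 column lay above its sgNT partner, by less than the distance between the experiments. Ifit1, which binds RNA that lacks the cap methylation of the host, had 16.7 CPM in sgElovl1 against 16.1 CPM in sgNT cells of experiment 2 and 8.31 against 7.89 CPM in experiment 1, a log2 fold change of 0.06 (SE 0.12, adjusted p = 0.925 in edgeR). Ifit2 had 37.6 CPM in sgElovl1 against 35.7 CPM in sgNT cells of experiment 2 and 26.1 against 29.9 CPM in experiment 1, so that the guides stood in opposite order in the experiments.

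The 3 genes of the ISG15 system and the 4 sensors held 0 past the threshold in edgeR, with 0 at an unadjusted p under 0.05. Over all genes tested these shares were 1.2% and 10.6%, so that few would be met among so few genes. Isg15, a ubiquitin-like protein conjugated to other proteins, had 23.0 CPM in sgElovl1 against 21.2 CPM in sgNT cells of experiment 2, and 8.13 against 8.59 CPM in experiment 1. Usp18, which encodes the protease that removes ISG15 and restrains the receptor, had 8.77 CPM in both groups of experiment 2 and 4.81 against 4.83 CPM in experiment 1. Herc6, which encodes the main ISG15 ligase of the mouse, had 0.09 (SE 0.09, log2) between the guides, and 53.8% of its span is overlapped by an annotated gene on the same strand. Among the sensors the log2 fold changes were 0.18 for Ifih1, which encodes the RNA sensor MDA5, 0.12 for Dhx58, which encodes its partner LGP2, 0.11 for Zbp1, a sensor of Z-form nucleic acid, and -0.02 for Eif2ak2, the kinase PKR.

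The lowest fold changes were small. Among genes with a mean of at least 5 CPM, Cmpk2, a mitochondrial nucleotide kinase, had the most negative one, at -0.09 (SE 0.13, adjusted p = 0.894 in edgeR), with 15.2 CPM in sgElovl1 against 14.6 CPM in sgNT cells of experiment 2 and 5.57 against 6.73 CPM in experiment 1. Ifi35 had 62.1 CPM in sgElovl1 against 65.4 CPM in sgNT cells of experiment 2 and 59.6 against 63.7 CPM in experiment 1, a log2 fold change of -0.08 (SE 0.07), and was lower in sgElovl1 in each experiment. Tor3a had 12.3 CPM in sgElovl1 against 12.0 CPM in sgNT cells of experiment 2 and 10.1 against 11.6 CPM in experiment 1, a log2 fold change of -0.08 (SE 0.12). Of the other antiviral effectors, Samhd1, which hydrolyses deoxynucleotides, had 0.13 (SE 0.07), Rtp4, with 42.4% of its span overlapped by an annotated gene on the same strand, had 0.10 (SE 0.08), Isg20, an exonuclease, had -0.03 (SE 0.09), Bst2, which tethers virions to the membrane, had -0.06 (SE 0.07) and Rsad2, the enzyme viperin, had -0.10 (SE 0.29). Parp9 and Dtx3l, which encode partners in a complex that ADP-ribosylates ubiquitin, had 0.12 (SE 0.07) and -0.06 (SE 0.07), and Parp14, a related enzyme, had 0.00 (SE 0.06). Ifi27l2a had 0.08 (SE 0.06), Trim30a, a TRIM protein of the mouse, had 0.07 (SE 0.07), Lgals3bp, a secreted glycoprotein, had 0.07 (SE 0.06) and Sp100, of nuclear bodies, had 0.00 (SE 0.06). Ifi44 had 1 or 2 counts in every column, at or under the level that a count of 0 allows, and was not tested.

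The fold changes of the ISGs in the separate experiments were set side by side as a description. The median over the ISGs was 0.09 (experiment 2) and 0.08 (experiment 1), against 0.00 and -0.02 over the 15810 tested genes with a count in every column. The sign was positive in both experiments for 20 of 36 ISGs (55.6%, against 25.7% of those genes), negative in both for 3 (Ifi35, Bst2 and Dtx3l) and opposite for 13. Across the 36 genes the fold changes of the experiments had a Pearson correlation of 0.628, against 0.0107 across the 15810 genes, where the points of an experiment share a pair of columns and genes are not independent replicates. The sets also differ in level, with a median of 39.9 CPM for the ISGs and 12.9 CPM for all genes tested. Fold changes of genes with few counts carry more counting error. A difference in the sgElovl1 effect between experiments was not tested, since 1 column per group and experiment leaves no error for it.

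More ISGs passed the threshold between the experiments than between the guides. Each experiment gave 1 pair of columns, so the p-values of this comparison measure spread between columns and not between repeated experiments. The comparison is a description of these 2 experiments. In experiment 2, 30 of 36 ISGs were higher than in experiment 1 (83.3%), 2 were lower (5.56%) and 4 were not past the threshold in edgeR, against a background of 26.4% of all genes tested called higher, 29.2% called lower and 55.6% called in either direction. The median log2 fold change of experiment 2 over experiment 1 was 0.79 (1.73-fold), against 0.00 over all genes tested. It was 0.77 between the sgElovl1 columns and 0.80 between the sgNT columns, and the ratios of the groups had a Pearson correlation of 0.969 across the 36 genes. The 37 ISGs together held 0.364% of all counts in sgElovl1 and 0.363% in sgNT cells of experiment 2, and 0.238% in sgElovl1 and 0.220% in sgNT cells of experiment 1. In bulk RNA, more cells that express these genes and more RNA per cell cannot be told apart.

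Ifit3 showed the largest fold change of the 36 between the experiments, with the levels given above. Its level in experiment 2 was 4.52 times that in experiment 1, a log2 fold change of 2.18 (SE 0.09, adjusted p = 1.72e-135 in edgeR). Ifi27l2a, which encodes a small interferon-induced membrane protein, had 320 CPM in sgElovl1 and 312 CPM in sgNT cells of experiment 2, against 89.8 CPM in sgElovl1 and 82.6 CPM in sgNT cells of experiment 1. It rose by 1.87 (SE 0.06, log2) at an adjusted p of 1.13e-171 in edgeR. Irf7 rose by 1.44 (SE 0.06, log2, adjusted p = 7.39e-104 in edgeR) and Oas2 by 1.53 (SE 0.14, adjusted p = 6.12e-28 in edgeR). For these 4 genes the columns of experiment 2 did not overlap those of experiment 1.

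By role, all 4 IFIT genes, all 5 OAS genes, all 3 genes of the ISG15 system and all 3 transcription factors rose in experiment 2. The median log2 fold changes of these families were 1.56 for the IFIT genes, 0.75 for the OAS genes, 1.06 for the ISG15 system and 0.90 for Stat2, Irf9 and Irf7. Isg15 rose by 1.40 (SE 0.11), Ifit1 by 1.02 (SE 0.12), Stat2 by 0.90 (SE 0.06), Irf9 by 0.79 (SE 0.07) and Mx1 by 0.75 (SE 0.07). Of the sensors Ifih1, Dhx58 and Zbp1 rose by 0.67, 1.03 and 1.00. Of the ADP-ribosylation genes Parp14 rose by 0.68 and Dtx3l, the ubiquitin ligase partner of PARP9, by 0.32, while Parp9 itself had 0.12 (adjusted p = 0.119 in edgeR). Of the antiviral effectors Rtp4 rose by 1.34, Rsad2 by 1.29, Cmpk2 by 1.28 and Samhd1 by 0.56, and of the remaining genes Xaf1 rose by 1.18, Trim30a by 0.79, Sp100 by 0.53 and Lgals3bp by 0.35. The adjusted p-values of the genes called higher lay at 0.0375 (Oasl1) or below in edgeR, and in the Wald test of DESeq2 Oasl1 was not called (adjusted p = 0.135).

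Not every ISG followed. Isg20 had 15.8 CPM in sgElovl1 and 17.6 CPM in sgNT cells of experiment 2, against 23.0 CPM in sgElovl1 and 21.6 CPM in sgNT cells of experiment 1, a log2 fold change of -0.42 (SE 0.09, adjusted p = 3.17e-05 in edgeR). Eif2ak2 had 33.4 CPM in sgElovl1 and 32.8 CPM in sgNT cells of experiment 2, against 38.4 CPM in sgElovl1 and 40.2 CPM in sgNT cells of experiment 1, a log2 fold change of -0.25 (SE 0.08, adjusted p = 0.00306 in edgeR). With upper-quartile scaling Eif2ak2 had -0.16 and was not past the threshold (adjusted p = 0.0587 in edgeR), nor was it in the Wald test of DESeq2 (-0.23, adjusted p = 0.0898). Bst2 (-0.02, SE 0.07), Ifi35 (0.05, SE 0.07) and Tor3a (0.16, SE 0.12) were not past the threshold. Bst2 and Eif2ak2 hold the ISRE core in their windows, as do Ifit3 and Isg15 at the other end of the range. The 12 genes with the core had a median of 0.84, from -0.25 to 2.18, and the 14 tested genes with a window but no core had 0.54, from -0.42 to 1.44. For sgElovl1 over sgNT the medians were 0.07 with and 0.04 without the core, and neither difference was tested.

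**Figure D3:**
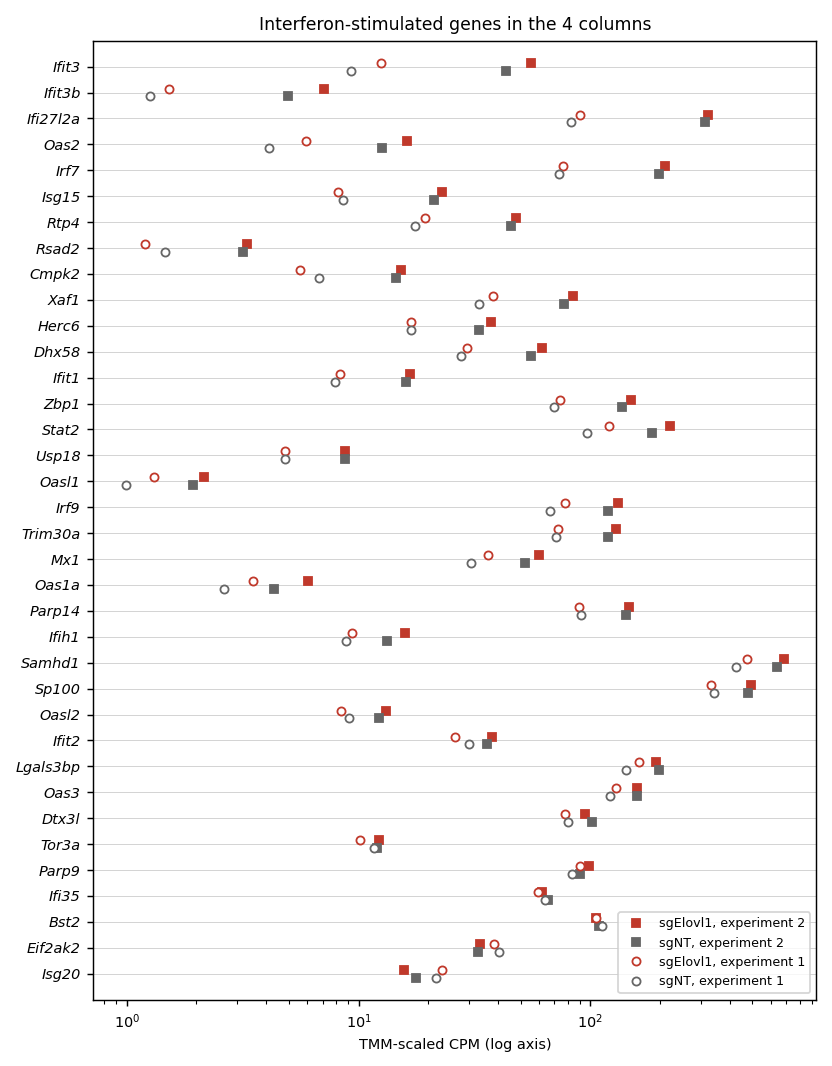
Level of the 36 ISGs tested in TMM-scaled CPM (log axis) in the sgElovl1 (red) and sgNT (grey) columns of experiment 2 (filled squares) and experiment 1 (open circles), ordered by the fold change of experiment 2 over experiment 1. The squares lie to the right of the circles for most genes, as for Ifi27l2a with 320 and 312 against 89.8 and 82.6 CPM, and to their left for Eif2ak2 and Isg20 at the bottom.

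**Figure D4:**
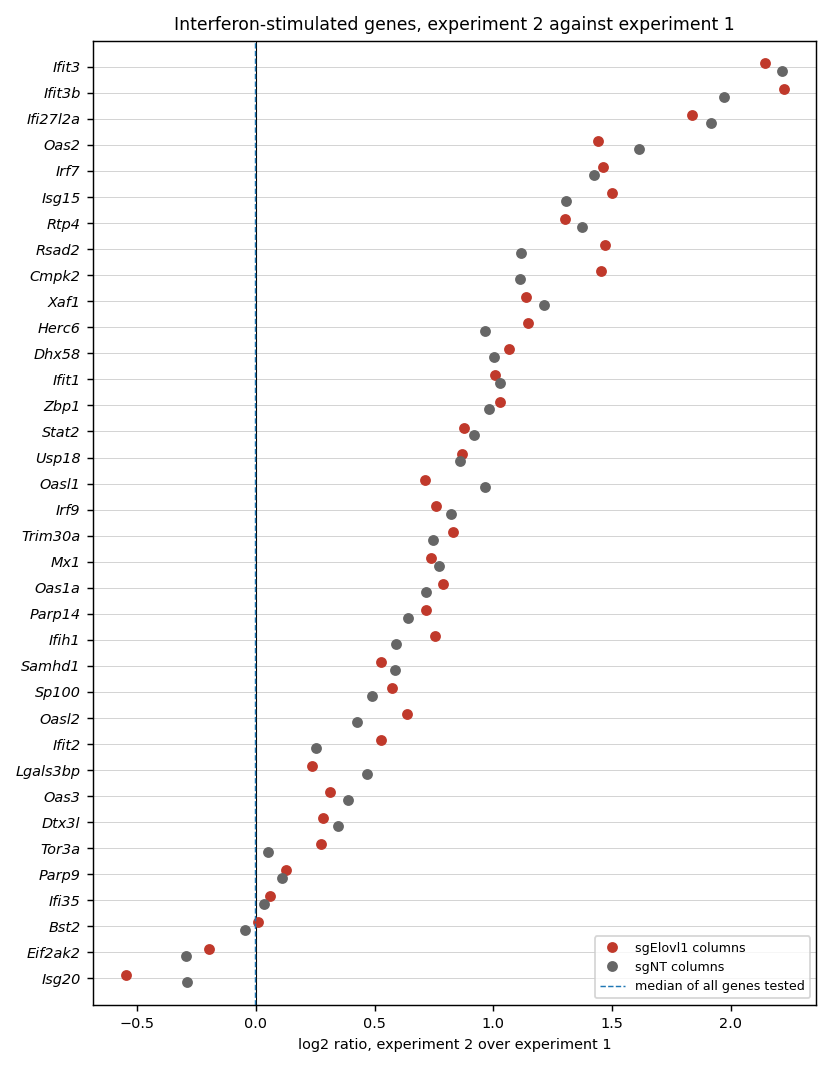
Log2 ratio of experiment 2 over experiment 1 for the 36 ISGs tested, in the sgElovl1 columns (red) and in the sgNT columns (grey), with the median of all genes tested as a dashed line. The red and grey points of a gene lie close together, with medians of 0.77 and 0.80.

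Other features of the cells moved with the experiment too, and single genes set some of the sums. The 10 CD8 T cell markers summed to 5635 CPM in sgElovl1 and 5678 CPM in sgNT cells of experiment 2, against 7189 CPM in sgElovl1 and 7491 CPM in sgNT cells of experiment 1. Gzmb, which encodes granzyme B, fell by 2.03 on the log2 scale, to 612 CPM in sgElovl1 and 605 CPM in sgNT cells of experiment 2, against 2458 CPM in sgElovl1 and 2498 CPM in sgNT cells of experiment 1. Without Gzmb the other 9 summed to 5024 CPM in sgElovl1 and 5073 CPM in sgNT cells of experiment 2, against 4731 CPM in sgElovl1 and 4993 CPM in sgNT cells of experiment 1. Of the 10, 5 were higher (50%) and 3 lower (30%) in experiment 2 in edgeR, with a median log2 fold change of 0.10. Over all genes tested the shares were 26.4% higher and 29.2% lower.

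The 10 myeloid markers summed to 14.99 to 16.9 CPM in the columns of experiment 2 and 11.1 to 12.9 CPM in those of experiment 1, with Cybb and Csf3r among those at 0 in every column, and 1 of the 4 tested, Itgam, rose (2.95, adjusted p = 4.73e-11 in edgeR). The 8 markers of plasmacytoid dendritic cells, which make much type I interferon, summed to 44.9 to 47.7 CPM in experiment 2 and 81.0 to 84.6 CPM in experiment 1, with Siglech and Klk1 at 0 in every column. Without Irf8, which fell by 1.12 on the log2 scale in experiment 2, the other 7 summed to 11.4 to 12.7 CPM in experiment 2 and 8.46 to 8.59 CPM in experiment 1, and Pacsin1 rose by 1.48. The 7 B cell markers summed to 9.47 to 9.87 CPM in experiment 2 and 7.70 to 7.74 CPM in experiment 1. Ms4a1 and Blnk were at 0 in every column. Without Cd79b the other 6 summed to 0.941 to 1.03 CPM in experiment 2 and 0.474 to 0.684 CPM in experiment 1. The 6 natural killer (NK) cell markers summed to 325 to 343 CPM in experiment 2 and 566 to 661 CPM in experiment 1. Without Gzma the other 5 summed to 155 to 158 and 231 to 256 CPM in this order. Eomes made up most of that, with 153 to 156 CPM in experiment 2 and 230 to 255 CPM in experiment 1. Ncr1 and Klra8 were at 0 in every column. Of the 4 tested, Gzma and Eomes were lower in experiment 2. Klra4, with 2 to 34 counts, rose by 2.48 (adjusted p = 0.00555 in edgeR), and Klrb1c had 0.53 (adjusted p = 0.225 in edgeR). The 4 CD4 T cell markers summed to 36.0 to 37.5 CPM in experiment 2 and 30.7 to 31.6 CPM in experiment 1. Without Zbtb7b the other 3 summed to 9.09 to 10.9 and 5.16 to 6.27 CPM in this order, and Foxp3 rose by 0.98. The part of these differences in the result was not tested.

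The rest of the pathway was read from lists of its other genes. Of 21 interferon genes, 18 had 0 counts in all 4 columns, Ifnb1 among them, which allows up to 0.0601 CPM. The 3 detected were Ifnab, Ifnz and Ifng, the type II interferon. Ifnab had 12 counts in sgElovl1 against 6 in sgNT cells of experiment 2 and 3 against 19 in experiment 1. Ifnz had 6 counts in sgElovl1 against 0 in sgNT cells of experiment 2 and 10 in each group of experiment 1. Ifng had a log2 fold change of 0.49 in sgElovl1 over sgNT (SE 0.37, adjusted p = 0.704 in edgeR), with 1.71 CPM in sgElovl1 against 0.781 CPM in sgNT cells of experiment 2 and 1.71 against 1.80 CPM in experiment 1, and Ifnab had -0.66 (SE 0.98, adjusted p = 0.904 in edgeR).

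Of the receptors and JAK-STAT genes, 0 of 19 tested were past the threshold in sgElovl1 against sgNT in edgeR. An unadjusted p under 0.05 was reached by 3 (15.8%). Of all genes tested, 1.2% were past the threshold between the guides and 10.6% had an unadjusted p under 0.05. Their median log2 fold change was 0.03. Ifnar1 had 0.08 (SE 0.06), Ifnar2 0.08 (SE 0.07), Jak1 0.00 (SE 0.07) and Tyk2 0.15 (SE 0.06, adjusted p = 0.353 in edgeR). Socs3, a feedback inhibitor of cytokine signalling, had 0.24 (SE 0.08, adjusted p = 0.130 in edgeR). Between experiments 11 of the 19 were higher (57.9%) and 2 lower (10.5%) in experiment 2, with Ifnar2 at 1.02, Tyk2 at 0.60, Jak1 at 0.58 and Ifnar1 at 0.53. Over all genes tested the shares were 26.4% higher and 29.2% lower.

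Among 10 interferon regulatory factors and their relatives outside the 37, only Irf2bpl passed the threshold in sgElovl1 against sgNT, and fell by 0.26 (SE 0.07, log2) at an adjusted p of 0.0325 in edgeR. Irf1, a factor induced by interferons, had 0.06 between the guides and rose by 1.01 in experiment 2. Of 16 genes of nucleic acid sensing tested, only Ikbke, a kinase upstream of IRF3 and IRF7, rose, by 0.22 (SE 0.06, adjusted p = 0.0462 in edgeR), and Adar, which edits double-stranded RNA, had 0.16 (SE 0.06, adjusted p = 0.264 in edgeR). Of 56 other ISGs tested, only Slfn1, a Schlafen gene of T cell quiescence, rose, by 0.25 (SE 0.06, adjusted p = 0.0166 in edgeR). Trim34a had 0.23 (SE 0.07, adjusted p = 0.0661 in edgeR). The median of these 56 was 0.07 between the guides. Between experiments 38 were higher (67.9%) and 7 lower (12.5%) in experiment 2, with a median of 0.51. The 7 were Gm4951 (-1.63), Ifitm3 (-1.24), Ly6a (-0.90), Ifitm2 (-0.82), Ifi30 (-0.74), Ifitm1 (-0.34) and Nt5c3 (-0.25). Some of these falls were larger than those of Isg20 and Eif2ak2 among the 37. Over all genes tested, 26.4% were called higher and 29.2% lower between experiments, and 0.762% and 0.437% between the guides.

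Families induced by interferon gamma as well as by type I interferon are given beside the 37 ISGs, and their difference from the ISGs was not tested. Over all genes tested, edgeR called 0.762% higher and 0.437% lower between the guides. Of 10 guanylate-binding protein genes tested, 4 rose and 0 fell in sgElovl1 against sgNT cells in edgeR, with a median of 0.23. They were Gbp11 (0.46), Gbp8 (0.41), Gbp6 (0.32) and Gbp2 (0.24), with adjusted p-values of up to 0.0336 in edgeR. Of 9 immunity-related GTPase genes Iigp1 (0.33) and Irgm1 (0.28) rose, and of 10 genes of the Ifi200 cluster, a family of nuclear DNA-binding proteins, Mndal (0.30) and Ifi213 (0.22) rose. Between experiments 26.4% of all genes tested were called higher and 29.2% lower in experiment 2. The immunity-related GTPases had a median of -0.27, with 2 higher (22.2%) and 5 lower (55.6%) in experiment 2. The guanylate-binding protein genes had a median of 0.29, with 5 higher (50%) and 0 lower. The Ifi200 genes had a median of 0.74, with 7 higher and 1 lower.

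**Figure D5:**
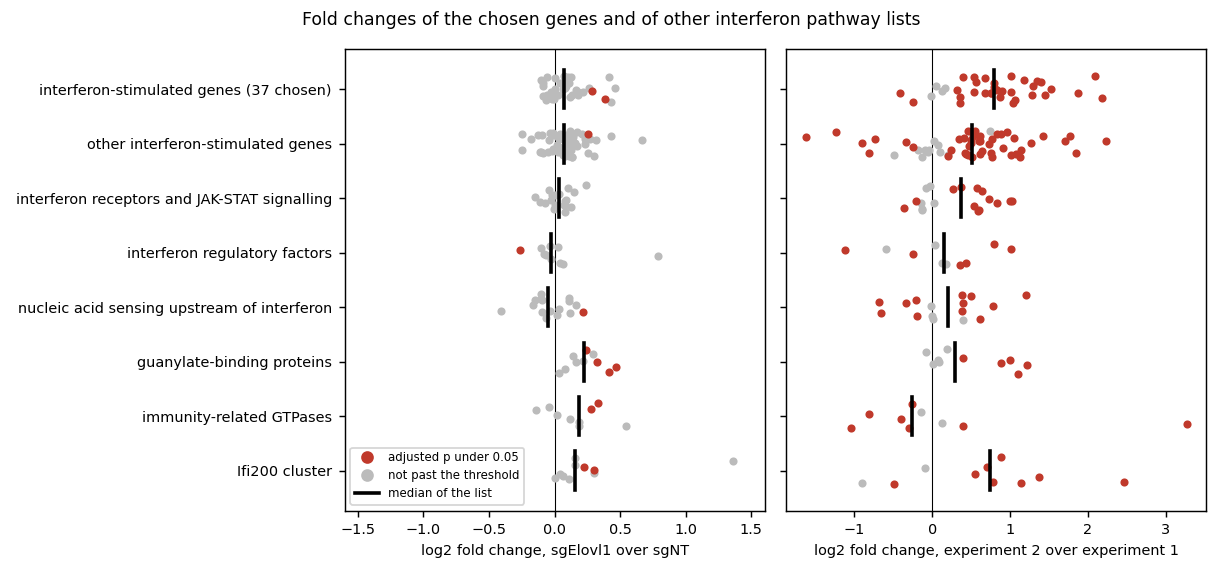
Log2 fold change of each tested gene of the 37 ISGs and of 7 other interferon pathway lists, for sgElovl1 over sgNT (left panel) and experiment 2 over experiment 1 (right panel), with genes at an adjusted p under 0.05 in edgeR in red and the median of each list as a black bar. The medians of the left panel lie between -0.05 and 0.23, and in the right panel that of the ISGs is 0.79 and that of the immunity-related GTPases is -0.27.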

How the data were processed

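CD8+ T cells of both groups were profiled by stranded mRNA sequencing. As stated in the methods and in the submitters' notes on processing, the authors mapped reads with STAR 2.7.10b to GRCm39 (mm39), counted them over whole genes, introns included and by strand, with featureCounts 2.0.1 in R 4.3.3, and summed the mice of an experiment. The deposited values were these raw counts, whole numbers with no normalization, in 4 columns that the library names in the labels tie to group and experiment. The authors tested them with DESeq2 1.42.0. The planned tests had assumed 8 libraries, and 1 residual degree of freedom was left. P-values rest on the spread between columns shared over all genes (biological coefficient of variation 6.98%, infinite prior degrees of freedom), and the spread between mice was not analysed here.

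Genes were kept by filterByExpr with group (16006 of 56805, with no count for 32132), and edgeR 4.0.16 (R 4.3.3) was run on them with TMM factors and its quasi-likelihood F test. The model held group and experiment, p-values were adjusted by Benjamini-Hochberg over all genes tested, and the threshold was 0.05. SE is that of the fit. CPM are counts relative to the TMM-scaled library total and are not corrected for gene length. A fold change of 1 experiment compares its 2 columns. Alternatives were DESeq2 size factors, upper-quartile factors, scaling without mitochondrial and the 20 most counted genes, no filter, a mean of at least 5 CPM, DESeq2 1.42.0 by Wald or likelihood-ratio test, limma-voom (limma 3.58.1), no experiment or no group term, each column left out, a shift along the difference between experiments removed and a promoter window of 150 bases. Promoters came from RefSeq and transcripts from GENCODE vM21, both on GRCm38, another build than the counts.

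The 37 genes and all lists were chosen with earlier results of these data known. Named with values in every column were genes past the threshold between the guides, the 6 with the smallest p, the 3 most negative and the 4 with the largest change between experiments at a mean of at least 5 CPM, and Isg15, Irf7, Irf9, Stat2, Ifit1 and Ifit3. From each other list up to 4 genes past the threshold were named, or the 2 with the smallest p, and Ifnar1, Ifnar2, Jak1 and Tyk2. Some genes that the rule takes are left out of the text. Ifit2, Ifit3b, Usp18, Isg20, Eif2ak2, Lgals3bp, Sp100 and Irf1 were described with values after their values were seen. So were single cell type markers and the other ISGs that were lower in experiment 2.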

Additional observations from a re-analysis of the deposited data

Results flagged for a closer look

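For Lgals3bp, which encodes a secreted glycoprotein, the log2 fold change of sgElovl1 over sgNT was -0.0419 in experiment 2 and 0.187 in experiment 1, with 192 CPM in sgElovl1 against 197 CPM in sgNT cells of experiment 2 and 162 against 143 CPM in experiment 1. Sp100, a component of nuclear bodies, had 0.0432 in experiment 2 and -0.0403 in experiment 1, with 493 CPM in sgElovl1 against 478 CPM in sgNT cells of experiment 2 and 331 against 341 CPM in experiment 1. These 2 genes stood out because the 95% counting intervals of their fold changes lay on opposite sides of 0 in the experiments. The intervals cover counting error only, and the difference between the experiments was not tested.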

How the results depend on the processing

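Ifit3 and Stat2 rose and 0 ISGs fell in sgElovl1 cells under each other scaling, each filter and limma-voom. The count of ISGs that rose was 1 with the Wald and the likelihood-ratio test of DESeq2 (Stat2, with 6 at an unadjusted p under 0.05 in each). It was 0 in edgeR with no experiment term (0 at an unadjusted p under 0.05), with the shift along the difference between experiments removed (4), and with each column left out (0 to 4). Over all 16006 genes the fit with no experiment term called 0 (19 at an unadjusted p under 0.05) and those with a column left out 0 or 1 (77 to 342), so that these counts of ISGs are not particular to them. The values were then 0.37 and 0.28 with no experiment term and 0.19 and 0.21 without the shift, for Ifit3 and Stat2 in this order. With a column left out they ranged from -1.06 to 1.90 for Ifit3 and from -0.22 to 0.84 for Stat2, both negative without sgElovl1 of experiment 2 (-1.06 and -0.22) and without sgNT of experiment 1 (-0.35 and -0.11). The median over the ISGs ranged from -0.33 (without sgElovl1 of experiment 2) to 0.66, with -0.20 without sgNT of experiment 1. These fits set unequal numbers of columns of each experiment against each other by construction.

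Between experiments 27 to 31 ISGs were higher under the alternatives that kept all 4 columns. Over all genes tested, these alternatives called 3286 to 4860 higher and 3555 to 4683 lower, against 4219 and 4677 in the main fit. The 27 came with the filter at a mean of 5 CPM, under which Ifit3b, Rsad2, Oas1a and Oasl1 were not tested. The number lower was 2, but 1 with upper-quartile factors and with both DESeq2 tests, and the cause was not tested. Of all genes, 4005 were called lower with upper-quartile factors, 3621 with the Wald and 3612 with the likelihood-ratio test. With a column left out, 1 experiment keeps a single column, so that the counts of those fits are not read here. In promoter windows of 150 bases before the start the GAS core was in 11.1% of the ISGs against 4.77% of all genes, and the ISRE core in 29.6% against 1.85%. Over all genes tested, the split of sgElovl1 calls into higher and lower was 132 and 44 under the size factors of DESeq2, 182 and 57 under upper-quartile scaling, 173 and 44 without the most counted genes, 66 and 28 with no filter, 30 and 5 at a mean of 5 CPM, 22 and 4 in DESeq2 and 49 and 23 with the shift removed. No paired analysis was possible because the columns, sums of 2 mice, carry no replicate number, beyond the comparison within experiments that the experiment term makes. At this depth Ifi44 and 19 of 21 interferon genes had too few counts for a test.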
